A study of Drosophila melanogaster with 6 samples.

Results

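Long stretches of the Drosophila melanogaster genome without a peak of either ROW or BEAF-32 were taken from a chromatin immunoprecipitation study of S2 cells, a blood-cell-like line derived from embryos. Sheared chromatin of nuclei was precipitated with an antibody against either protein, barcoded and sequenced, in 3 samples with the ROW antibody and 3 samples with the BEAF-32 antibody. All 6 samples came from the same cell line, no treatment or genotype is named, and each title carries the prefix con, which was not interpreted. One peak list per antibody was deposited for its 3 samples. Peaks of both lists on the arms 2L, 3L, 3R and X were pooled, and overlapping peaks were joined into merged intervals. A long gap was a stretch of at least 50 kb between consecutive merged intervals, and the interval on each side was its flank. This rule gave 401 long gaps among 7132 stretches, and 748 flanking intervals among 7136 merged intervals. The other 6388 intervals flanked no long gap. The whole series held 9661 merged intervals when all sequences were counted.

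BEAF-32 is a DNA-binding insulator protein found at boundary elements, often beside promoters of active genes and at borders between chromatin domains. ROW is a protein with zinc fingers and AT hooks that works in a complex with WOC and the heterochromatin protein HP1c, a complex found at active promoters. In Drosophila cell lines, many active genes lie in protein-rich regions, and much of the remaining chromosome forms long inactive domains. Whether the gaps lie in such domains was not tested. A gap free of both proteins is a region in which no peak of either was called.

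The gaps were chosen by the positions of the peaks, so their number, length and place are descriptions. The lists hold no value for a single sample and no read count, so replicate error could not be taken from them and the read depth is unknown. No test was therefore run. The 95% intervals below treat merged intervals as independent, although neighbours are not, and cover counting error only. The pool on the 4 arms held 6461 ROW peaks and 3543 BEAF-32 peaks, and coordinates are on the dm3 build, counted from 1. Strength is fold enrichment over local background at the peak's summit, as the authors deposited it, and was compared only within the list of 1 antibody. For an interval with several peaks of a protein the strongest one was used.

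Gaps were few but held a large part of the chromosomes. They made up 5.62% of all stretches (95% Wilson interval 5.11 to 6.18) and 40.1 Mb, or 41.1%, of the 97.7 Mb between the first and last interval of each arm. Most stretches were short, with a median of 5.04 kb and quartiles of 1.97 and 11.8 kb. The gaps had a median length of 81.2 kb, quartiles of 60.6 and 118 kb, and a maximum of 462 kb. At least 100 kb was reached by 142 gaps, which held 55.7% of the bases in gaps, 200 kb by 23 gaps and 300 kb by 6. Outside the gaps there were 124 merged intervals per Mb, against 73.0 per Mb over the whole span. The rule fixes the direction of this difference, because a gap holds no interval.

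The 4 arms were similar in the number and length of gaps, and the X had the largest share of its bases in them. The X had 98 gaps, 4.38 per Mb, which held 46.0% of its span. Arm 3R had 114 gaps, 4.09 per Mb, with 40.8% of its span. Arm 2L had 87 gaps, 3.78 per Mb, with 39.4% of its span, and 3L had 102 gaps, 4.16 per Mb, with 38.5%. Median gap length was 85.6 kb on the X, 83.0 kb on 2L, 81.6 kb on 3R and 76.5 kb on 3L. The quartiles overlapped widely, from 65.6 to 130 kb on the X and from 59.7 to 108 kb on 3L. Among all stretches of an arm, long gaps made up 6.31% on the X (5.21 to 7.63), 5.63% on 3R, 5.44% on 3L and 5.18% on 2L (4.22 to 6.35), and these intervals overlap.

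**Figure D1:**
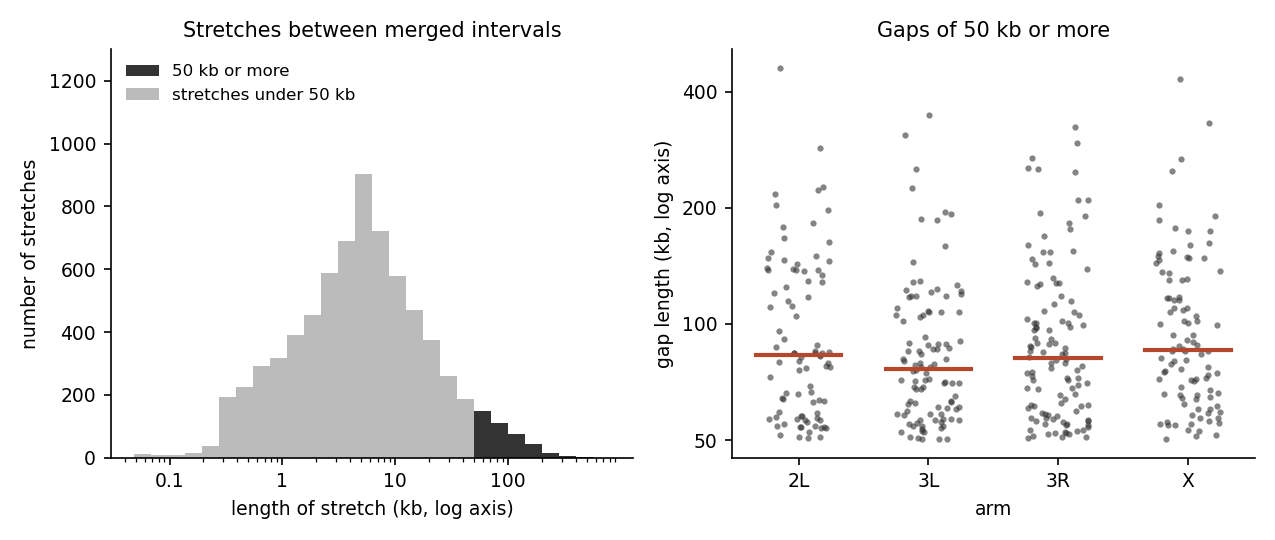
Left, number of stretches between merged intervals by length in kb (log axis), with stretches of 50 kb or more in black and the 6 stretches under 50 bp drawn in the first bin. Right, each point is a gap, with its length in kb (log axis) by arm, and the bar is the median, which lies between 76.5 and 85.6 kb on all 4 arms.

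Gaps lay along the whole of each arm but were not spread evenly. Each arm was cut into 10 parts of equal length between its first and last interval, numbered in the direction of rising coordinates. On 2L the share of bases in gaps was lowest in the last part, at 11.1%, and in the fourth, at 18.7%. It was highest in the seventh part, from 13799515 to 16098335, where 14 gaps held 76.4% of the bases. The eighth part of 2L, from 16098336 to 18397155, had 60.3% of its bases in 7 gaps. On the X the last part, from 20176731 to 22415591, had 69.1% of its bases in 12 gaps, while the other parts ranged from 31.7% to 50.8%. On 3L the shares ranged from 23.4% to 58.1% and on 3R from 27.4% to 54.4%. The longest run of sequence with no long gap was 1.37 Mb on 2L, 1.06 Mb on 3L, 0.826 Mb on 3R and 0.746 Mb on the X.

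**Figure D2:**
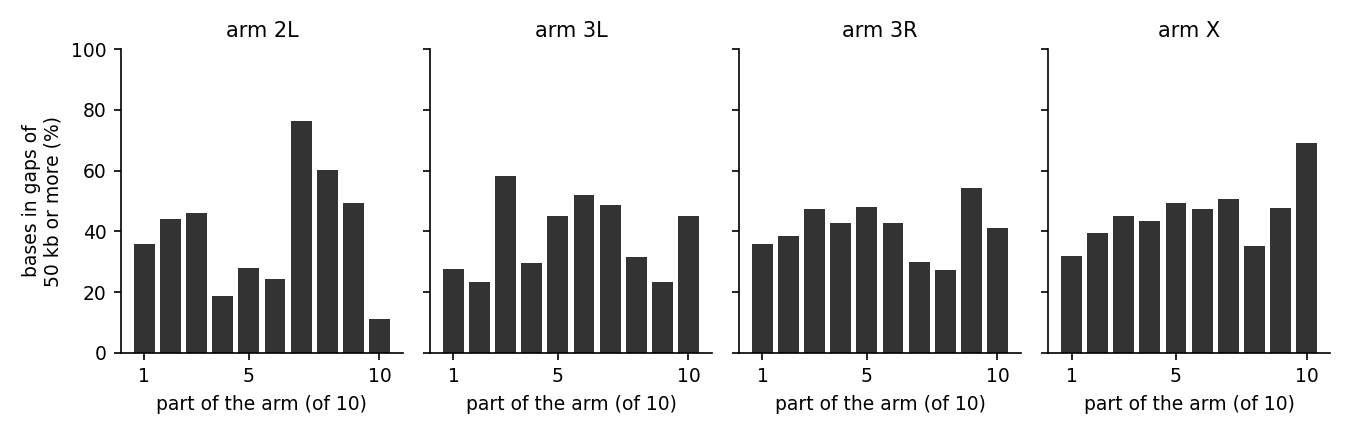
Share of bases in gaps of 50 kb or more in each of 10 equal parts of the span between the first and last interval of an arm, in the direction of rising coordinates. The seventh part of 2L (76.4%) and the last part of the X (69.1%) stand highest.

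The 10 longest gaps summed to 3.32 Mb, and their flanks differed widely. Of the 20 flanks 9 held ROW alone, 3 held BEAF-32 alone and 8 held both. The longest gap ran for 462 kb on 2L, from 17501438 to 17962999. Both of its flanks were strong BEAF-32 sites with weak ROW, with BEAF-32 at 27.9-fold and ROW at 2.25-fold on the left, and BEAF-32 at 23.95-fold and ROW at 3.40-fold on the right. The second gap covered 433 kb of the X, from 11923722 to 12356431. Its left flank had BEAF-32 at 25.1-fold and ROW at 12.9-fold, and its right flank had BEAF-32 at 15.8-fold and ROW at 9.75-fold. In each of these 4 flanks the summits of both proteins lay close together, at distances of 98, 11, 64 and 11 bp in the order given.

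The third gap covered 349 kb of 3L, from 13506691 to 13855491. Its left flank was strong for both proteins, with ROW at 22.0-fold, BEAF-32 at 26.1-fold and summits 48 bp apart, and its right flank held ROW alone at 10.1-fold. The fourth, 332 kb on the X from 14141932 to 14474332, had ROW at 8.13-fold and BEAF-32 at 10.2-fold on the left and BEAF-32 alone at 16.01-fold on the right. The fifth was the longest on 3R, 323 kb from 1835725 to 2159145, with ROW at 3.80-fold and BEAF-32 at 8.70-fold on the left and ROW alone at 4.38-fold on the right. In each of these 3 gaps the proteins on the left and on the right differed.

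The next gap, on 3L from 13040255 to 13348994 (309 kb), had BEAF-32 alone at 6.84-fold on the left and ROW alone at 14.8-fold on the right. The next 3 gaps had ROW alone on both sides, between 1.95-fold and 3.65-fold. On 3R from 23814699 to 24109153 (294 kb) the flanks had ROW at 1.95-fold and 2.21-fold. On 2L from 16902456 to 17188954 (286 kb) they had 2.25-fold and 3.02-fold, and on 3R from 12482071 to 12750968 (269 kb) 3.65-fold and 1.997-fold. The last of the 10, on the X from 20632168 to 20899291 (267 kb), had BEAF-32 alone at 19.5-fold on the left and both proteins on the right, with ROW at 8.97-fold and BEAF-32 at 8.47-fold.

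The limit of 50 kb cut through a continuous range of lengths, with 49 stretches in the 5 kb above it and 49 in the 5 kb below. The 3 gaps just inside were 50.2 kb on 3L from 15154983 to 15205224, 50.4 kb on the X from 15034033 to 15084403 and 50.4 kb on 3L from 7375267 to 7425673. Their flanks ranged from ROW alone at 1.95-fold to both proteins, with ROW at 13.3-fold and BEAF-32 at 22.7-fold. The 3 stretches just outside were 49.96 kb on 3L from 21884758 to 21934715, 49.7 kb on the X from 16781098 to 16830767 and 49.5 kb on the X from 21415399 to 21464902. Their flanks ranged from BEAF-32 alone at 4.14-fold to both proteins, with ROW at 2.59-fold and BEAF-32 at 24.3-fold.

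With the arms pooled, the shares of flanks and of other intervals that held each protein differed by 2.27 percentage points or less. ROW alone was present at 396 of 748 flanks, 52.9% (95% Wilson interval 49.4 to 56.5), against 50.7% (49.4 to 51.9) of intervals that flanked no gap. Both proteins were present at 280 flanks, 37.4% (34.0 to 41.0), against 39.7% (38.5 to 40.9). BEAF-32 alone was present at 72 flanks, 9.63% (7.71 to 12.0), against 9.64% (8.94 to 10.4). The share with any BEAF-32 peak was 47.1% at flanks and 49.3% at other intervals, a difference of -2.27 percentage points (Newcombe interval -6.03 to 1.52). The difference was -4.94 points (-7.98 to -1.87) with a minimum gap of 30 kb and -5.42 points (-9.24 to -1.59) with intervals up to 1 kb apart merged. Set only against intervals beside a stretch of 20 to 50 kb it was 1.72 points (-2.88 to 6.32). On 2L the share was lower. There 37.5% of 160 flanks held BEAF-32 (30.4 to 45.2), against 48.2% (45.7 to 50.7) of other intervals, a difference of -10.7 points (-18.3 to -2.62). On 3L, 3R and X the difference lay between -1.78 and 1.505 points and each interval included 0. Whether 2L differed from the other arms was not tested.

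The 748 flanks were of 2 kinds. A long gap lay on 1 side of 694 flanks and on both sides of 54, which are called islands here. The 1-sided flanks matched other intervals closely, with 51.0% ROW alone, 39.3% both and 9.65% BEAF-32 alone. Among the islands 42 of 54 held ROW alone, 77.8% (65.1 to 86.8), 7 held both proteins, 13.0% (6.42 to 24.4), and 5 held BEAF-32 alone, 9.26% (4.02 to 19.9). BEAF-32 was present at 22.2% of islands and 49.3% of intervals that flanked no gap, a difference of -27.1 points (-36.2 to -14.3). When peaks with a −log10 q under 10 were removed from both lists, the difference was -11.4 points (-23.7 to 2.20). The interval also included 0 with a minimum gap of 75 kb (-18.8 points, -33.7 to 1.62) or 100 kb (-26.9 points, -42.9 to 5.62), within 3L (-18.9 points, -35.9 to 7.31) and within 3R (-18.7 points, -37.0 to 6.38).

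**Figure D3:**
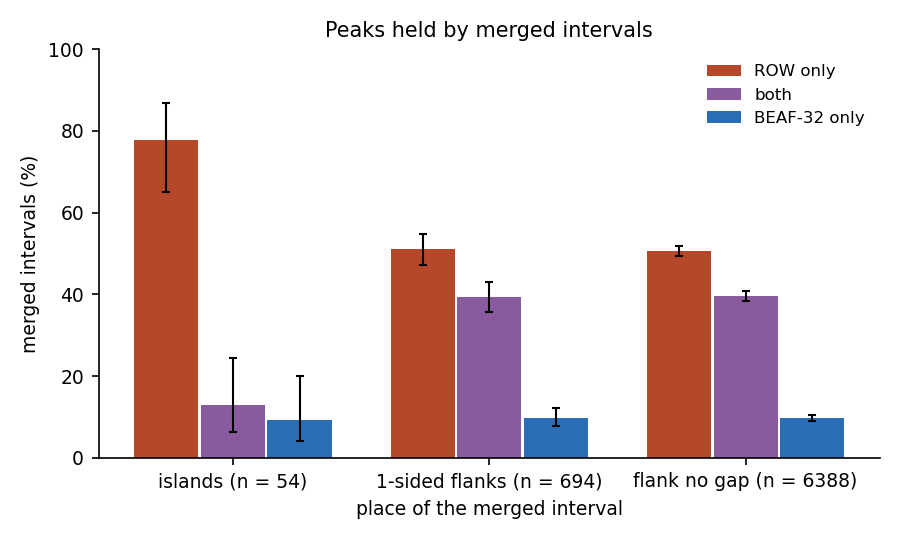
Share of merged intervals that hold ROW peaks only, peaks of both proteins or BEAF-32 peaks only, for islands with a long gap on both sides, flanks with a long gap on 1 side and intervals that flank none. Bars carry 95% Wilson intervals. Islands held ROW alone in 77.8% of cases, against 51.0% of 1-sided flanks and 50.7% of intervals that flank no gap.

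Where a flank held BEAF-32, the median strength was higher than at other intervals. The median over the 352 flanks with BEAF-32 was 11.4-fold (95% order-statistic interval 8.76 to 14.1), against 7.84-fold (7.30 to 8.51) over 3151 intervals that flanked no gap. The difference of medians was 0.54 on the log2 scale (0.18 to 0.90). Flanks ranged from 2.01-fold to 32.7-fold with quartiles of 4.61 and 22.5, and other intervals from 1.58-fold to 34.1-fold with quartiles of 3.80 and 18.3, so both ranges overlap almost fully. BEAF-32 of at least 16-fold was found at 145 of 352 flanks, 41.2% (36.2 to 46.4), and at 31.9% of all 3503 intervals with BEAF-32 on the 4 arms. At intervals that flanked no gap the share was 30.8% (29.3 to 32.5).

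The difference in BEAF-32 strength had the same sign on every arm. Medians at flanks and at other intervals were 11.6-fold and 7.25-fold on 2L, 9.48-fold and 6.58-fold on 3L, 11.7-fold and 8.56-fold on 3R, and 14.3-fold and 10.3-fold on the X. On the log2 scale the differences were 0.68, 0.53, 0.45 and 0.47 in that order, and the interval included 0 on 3L, 3R and X. With the arms pooled, intervals that held both proteins had medians of 13.9-fold at flanks and 9.19-fold where they flanked no gap. The log2 difference was 0.59 (0.28 to 0.91). For BEAF-32 alone the medians were 5.81-fold at flanks and 5.12-fold at other intervals, a log2 difference of 0.18 (-0.22 to 0.58). On 3L this order did not hold, with 0.65 (-0.13 to 1.43) at flanks of both proteins and 0.81 (0.15 to 1.46) at flanks of BEAF-32 alone. The latter value rests on 16 flanks. Of these 1 reached 16-fold, against 22 of 147 intervals of BEAF-32 alone on 3L that flanked no gap. With peaks under 4-fold removed from both lists before merging, the log2 difference over all flanks was 0.15 (-0.04 to 0.34). With peaks of a −log10 q under 10 removed it was 0.34 (0.02 to 0.67). Set only against intervals beside a stretch of 20 to 50 kb it was 0.43 (0.008 to 0.86). Measured by −log10 q in place of fold enrichment, it was 0.65 (0.04 to 1.26) over all flanks. For flanks of both proteins this measure gave 0.52 (-0.15 to 1.19).

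For ROW the medians of fold enrichment lay closer together. Its median was 4.04-fold (3.80 to 4.55) over 676 flanks with ROW and 4.25-fold (4.12 to 4.42) over 5772 other intervals, a log2 difference of -0.07 (-0.22 to 0.07). This value changed sign with peaks under 4-fold removed, to 0.13 (0.04 to 0.22). It was -0.17 (-0.31 to -0.02) with intervals up to 1 kb apart merged and -0.10 (-0.21 to -0.001) with a minimum gap of 30 kb. ROW of at least 8-fold was found at 194 of 676 flanks, 28.7% (25.4 to 32.2), and at 25.6% of all 6448 intervals with ROW. Where both proteins were held, the ROW medians were 7.03-fold at flanks and 5.98-fold at other intervals, a log2 difference of 0.23 (-0.04 to 0.51). For ROW alone they were 3.32-fold at flanks and 3.48-fold at other intervals, a log2 difference of -0.07 (-0.16 to 0.02). The −log10 q of ROW was lower at flanks with the arms pooled, with a median of 29.8 against 45.2 at other intervals, a log2 difference of -0.60 (-0.89 to -0.31). On 3L and X the interval included 0. For ROW alone this difference was -0.55 (-0.76 to -0.33), and for intervals of both proteins it was 0.12 (-0.38 to 0.62). With the arms pooled, flanks were also narrower, with a median width of 560 bp (528 to 576) against 598 bp (591 to 604). The log2 difference of width was -0.09 (-0.16 to -0.03), and its interval included 0 on 3L, 3R and X. It also included 0 for intervals of both proteins and of BEAF-32 alone, but not for ROW alone, at -0.21 (-0.28 to -0.13). Set only against intervals beside a stretch of 20 to 50 kb, the width difference was -0.05 (-0.13 to 0.03).

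**Figure D4:**
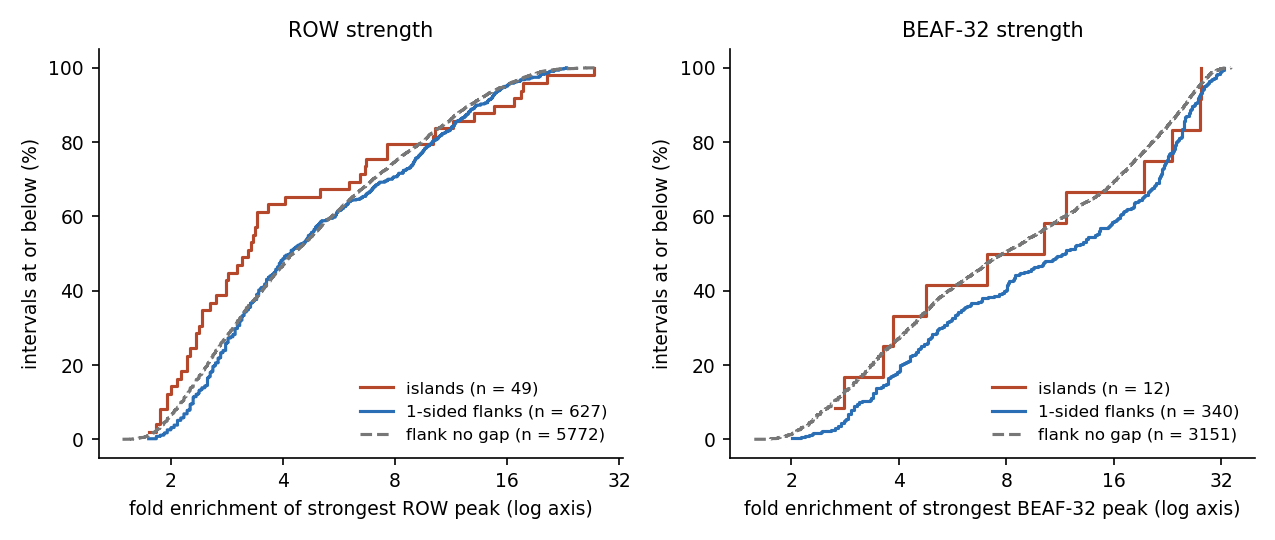
Cumulative share of merged intervals by fold enrichment of their strongest ROW peak (left) or BEAF-32 peak (right) on a log axis, for islands, 1-sided flanks and intervals that flank no long gap. The BEAF-32 curve of the 1-sided flanks lies to the right of that of intervals that flank no gap (medians 11.6-fold and 7.84-fold), and the ROW curve of the islands lies to the left over its lower part (medians 3.23-fold and 4.25-fold).

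BEAF-32 strength did not climb in even steps with the length of the neighbouring stretch. Intervals were grouped by the longer of the stretches beside them. The median BEAF-32 enrichment was 6.43-fold with less than 5 kb on both sides, 8.51-fold with 5 to 10 kb, 10.2-fold with 10 to 20 kb and 8.45-fold with 20 to 50 kb. It was 10.9-fold with 50 to 100 kb and 12.6-fold with 100 kb or more. The share of BEAF-32 intervals of at least 16-fold was 22.3% in the first of these groups and between 31.96% and 36.4% in the next 3, and it was 41.6% and 40.5% in the last 2. For ROW the medians ran from 3.98-fold in the first group to 4.76-fold with 5 to 10 kb and back to 4.06-fold with 100 kb or more. The share with BEAF-32 alone was 14.7% in the group with less than 5 kb and between 7.21% and 10.4% in the others.

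The strongest flanks were sites of both proteins, as were most strong sites that flanked no gap. BEAF-32 of at least 16-fold lay with ROW at 126 of 145 flanks and at 864 of 972 intervals that flanked no gap. ROW of at least 8-fold lay with BEAF-32 at 129 of 194 flanks and at 944 of 1458 other intervals. The 5 flanks with the strongest BEAF-32 peak all held ROW too, with BEAF-32 between 31.8-fold and 32.7-fold and ROW between 2.80-fold and 11.6-fold. The first, on the X from 17721312 to 17721925, had BEAF-32 at 32.7-fold and ROW at 2.97-fold, and an 83.7 kb gap on its left. The next, on 3L from 11986004 to 11986727, had BEAF-32 at 32.6-fold and ROW at 11.6-fold beside a gap of 159 kb. The others lay on 3R from 22550645 to 22551368, on 3L from 7719312 to 7719911 and on 3R from 8176094 to 8176845. Summits of both proteins were 24 to 199 bp apart in these 5 flanks.

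The 5 flanks with the strongest ROW peak also held BEAF-32, at 4.03-fold to 28.4-fold. The strongest was an island on the X from 22027276 to 22027857, with ROW at 27.4-fold, BEAF-32 at 23.3-fold, summits 2 bp apart, and gaps of 80.6 kb on the left and 86.2 kb on the right. The next, on 3L from 17235084 to 17235783, had ROW at 23.1-fold, BEAF-32 at 4.03-fold and a 186 kb gap on its left. The others were on 3L from 6481370 to 6481994 (ROW 22.7-fold), on the X from 10793054 to 10793845 (22.2-fold) and the left flank of the third longest gap (22.0-fold).

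Most islands held ROW alone, mainly at low enrichment, and a few were strong sites of both proteins. The median ROW enrichment over 49 islands with ROW was 3.23-fold (2.55 to 4.04), against 4.25-fold at intervals that flanked no gap, a log2 difference of -0.40 (-0.72 to -0.07). On 2L the difference was -0.80 (-1.05 to -0.55). On 3L, 3R and X it lay between -0.44 and -0.15, and each interval included 0. The 42 islands of ROW alone had a median of 2.83-fold and ranged from 1.74-fold to 17.7-fold. Intervals of ROW alone that flanked no gap had a median of 3.48-fold, a log2 difference of -0.30 (-0.56 to -0.05). For ROW alone, too, the interval of the difference included 0 on 3L, 3R and X. The 7 islands of both proteins ranged from 3.10-fold to 27.4-fold for ROW and from 2.65-fold to 28.0-fold for BEAF-32, and the 5 of BEAF-32 alone from 2.82-fold to 19.5-fold. At 20 of 54 islands no peak reached a −log10 q of 10, which is 37.0% (25.4 to 50.4), against 16.5% (15.6 to 17.4) of intervals that flanked no gap. Islands had a median width of 421 bp, against 598 bp. Of islands 87.0% consisted of a single peak, against 60.3% of intervals that flanked no gap. Among the single peaks themselves 89.4% (77.4 to 95.4) of those in islands were ROW peaks, against 84.0% (82.8 to 85.1).

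The island between the largest gaps lay on 2L from 17188955 to 17189429, held ROW alone at 3.02-fold and had 286 kb free on its left and 146 kb on its right. The next was a BEAF-32 peak on 3L from 10218274 to 10218655, at 3.62-fold, between gaps of 252 and 119 kb. A wide ROW interval of 2020 bp on 2L, from 15498890 to 15500909, had 7.62-fold enrichment and lay between gaps of 226 and 143 kb. On the X a BEAF-32 peak from 20631518 to 20632167 had 19.5-fold enrichment between gaps of 101 and 267 kb, and a ROW interval of 1311 bp from 21681998 to 21683308 had 2.80-fold between gaps of 178 and 162 kb. Gaps separated by a single island formed runs. There were 46 runs of 2 gaps and 4 runs of 3, and 297 gaps stood alone. The longest run of 3 covered 464 kb of 2L, from 15272638 to 15736269, and the others lay on 3L (341 and 175 kb) and on the X (278 kb). The 2L run lies in the seventh part of the arm, where gaps held most bases, and the X run in the last part.

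BEAF-32 stood at 1 edge only of many gaps, in a share similar to that of shorter stretches. BEAF-32 was present at both edges of 94 gaps, 23.4% (19.6 to 27.8), at 1 edge of 176, 43.9%, and at neither edge of 131, 32.7% (28.3 to 37.4). Among the 6731 shorter stretches these shares were 26.7%, 45.2% and 28.1% (27.0 to 29.2). BEAF-32 alone, with no ROW, stood at both edges of 1 of 401 gaps, 0.249% (0.044 to 1.399), and of 61 of 6731 shorter stretches, 0.906%. Gap length was similar whether BEAF-32 stood at neither edge (median 79.6 kb), at 1 edge (84.2 kb) or at both (79.3 kb).

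The summits of ROW and BEAF-32 were about equally often the nearer one to the gap. Among 273 1-sided flanks that held both proteins, the ROW summit was nearer the gap in 135, 49.5% (43.6 to 55.3), and the BEAF-32 summit in 138. The summits were a median of 79 bp apart at these flanks, against 84 bp at intervals of both proteins that flanked no gap. The flank was stronger than the next interval outwards about as often as it was weaker. BEAF-32 was stronger at the flank in 98 of 186 pairs in which both intervals held it, 52.7% (45.5 to 59.7), and ROW in 293 of 575 pairs, 51.0% (46.9 to 55.0). Median BEAF-32 enrichment was 11.2-fold over the 802 edges of gaps, counting an island once for each gap, 10.1-fold at the next interval outwards and between 9.34-fold and 10.6-fold at the 4 after that, with overlapping intervals. All 6 medians exceeded the 7.84-fold of intervals that flanked no gap, a set to which most of the outward intervals belong. Where ROW was held, its median was 3.95-fold (3.66 to 4.38) at 725 edges and 4.46-fold (4.04 to 4.87) at the next interval.

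In every 5 kb step up to 50 kb beyond the flanks, both proteins had more summits than their mean over the whole span. From 50 to 100 kb the steps lay on both sides of that mean. The outward windows can include the next long gap, as the span does, but they start at a merged interval, which the span mean does not. In the first 5 kb outwards from the flanking interval there were 8.03 ROW summits and 3.72 BEAF-32 summits per 100 kb. Over the whole span the values were 6.61 and 3.62. Sequence outside gaps, which by definition leaves out such empty stretches, held 11.2 and 6.15 and cannot be set against these windows. Between 5 and 50 kb outwards ROW ranged from 6.75 to 7.93 and BEAF-32 from 3.73 to 4.64 summits per 100 kb, and from 50 to 100 kb ROW ranged from 5.88 to 7.81 and BEAF-32 from 3.23 to 4.16. Within 50 kb outwards from a flank lay a median of 4 merged intervals (quartiles 1 and 6). Beside intervals that flanked no gap the median was 5 (quartiles 3 and 8). The rule favours this direction, because an interval that flanks no gap has a neighbour within 50 kb on each side.

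**Figure D5:**
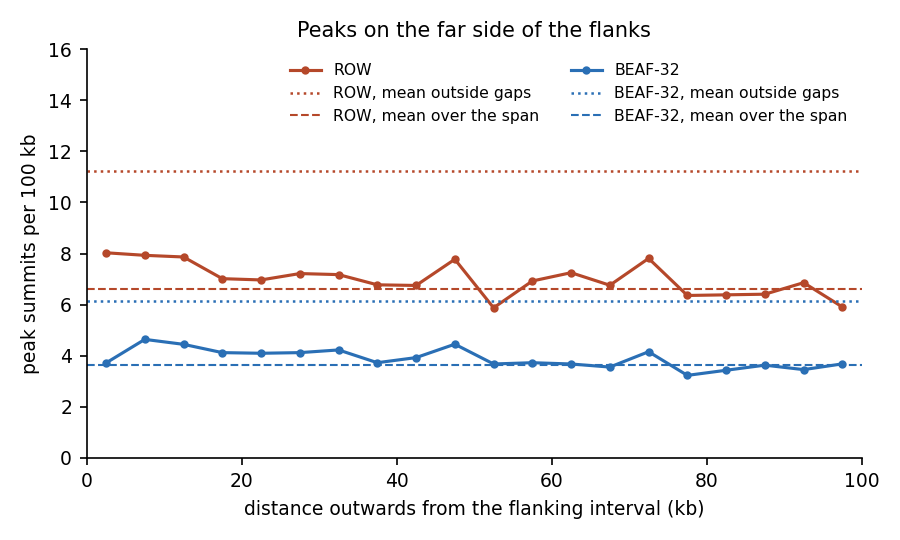
Peak summits per 100 kb in steps of 5 kb outwards from the flanking interval, on the side away from the gap and without the interval itself, over 799 to 802 edges. Dashed lines give the mean over the whole span (6.61 for ROW and 3.62 for BEAF-32). Both curves run above it up to 50 kb and on both sides of it beyond. Dotted lines give the mean outside long gaps (11.2 and 6.15), which excludes the gaps that the outward windows can include.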

How the data were processed

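Binding of ROW and BEAF-32 was mapped by ChIP-seq in S2 cells, 3 samples per antibody, grouped by title. The antibody labels of the BEAF-32 group differ by a running number, which was not used. Bowtie2, SAMtools, MACS2 and deepTools and the build dm3 are named in the submitters' processing notes, without versions or roles. The control library and how the 3 samples were combined are not given in the sources used here. The lists have 10 columns in narrowPeak layout. Column 7 was read as fold enrichment, a ratio as the authors deposited it, column 9 as the deposited −log10 q, a q-value scale on which larger is stronger, and column 10 as the summit offset. The deposited display score of column 5 and column 8 were not used.

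Peaks sharing at least 1 bp were merged. Shares have Wilson intervals, differences of shares Newcombe intervals, and medians order-statistic intervals; differences of log2 medians have Price and Bonett's interval. Merging, gap finding and the Price and Bonett interval were tested on simulated data, the last on independent values. The Wilson, Newcombe and order-statistic intervals were not tested in this way. Python 3.11.15, numpy 2.4.6, pandas 2.3.3 and scipy 1.17.1 were used. Named regions are the 10 longest gaps, the 3 stretches on either side of 50 kb, the 5 strongest flanks per protein and the 5 islands with the longest summed gaps. Alternatives changed the minimum length, the peaks pooled, the merging, the comparison set, the arm and the measure of strength. The members and all choices were made with earlier results of these data known. Genes, base composition and motifs of gaps and flanks were not analysed here, because no genome of dm3 was used; arm 2R was not analysed either.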

Additional observations from a re-analysis of the deposited data

How the results depend on the processing

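No paired analysis was possible because the 3 samples of an antibody share 1 list, which also prevents leaving out single samples. Staying within an interval does not mean that an interval kept its side of 0. Of 91 recalculations of 7 results, 77 stayed within the 95% interval of the reported value or, for the number of gaps and their share of the span, within 1.5 times of it. For the other 14 the cause was not tested unless stated. By construction the minimum length sets the number of gaps: 684 at 30 kb, 231 at 75 kb and 142 at 100 kb, the last with 22.9% of the span. Gaps in the BEAF-32 list alone, which is the shorter list, held 61.9% of the span. With a floor of 4-fold on all peaks the log2 differences between flanks and other intervals were 0.13 for ROW (0.04 to 0.22, opposite in sign to the reported value), 0.15 for BEAF-32 and -0.018 for width. With −log10 q the ROW difference was -0.60. Set only against intervals beside stretches of 20 to 50 kb, the difference in BEAF-32 share was 1.72 points (-2.88 to 6.32). Within 2L the difference in BEAF-32 share was -10.7 points for flanks and -41.1 points for islands, and the log2 width difference was -0.19. With −log10 q of at least 10 the islands' difference was -11.4 points, and its interval included 0 there, at 75 and 100 kb, and within 3L and 3R. The islands' alternatives were chosen after seeing the data. Depth is unknown, so a gap means that no peak was called, not that no protein was bound.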

Other observations

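Stretches free of 1 protein alone were also measured on the 4 arms. In the BEAF-32 list alone there were 500 stretches of at least 50 kb, which held 60.5 Mb and reached 654 kb, and 470 of them contained at least 1 ROW peak, up to 17. In the ROW list alone there were 411 such stretches with 41.8 Mb, and 195 of them, 47.4%, contained at least 1 BEAF-32 peak, at most 4. The small chromosome 4, which the gaps described above leave out, had 1 stretch of at least 50 kb, 51.8 kb long, among 146 merged intervals over 1.24 Mb.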
